A study of Mus musculus with 24 samples.

Results

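The 12 left ventricles sequenced after transverse aortic constriction (TAC) were compared with one another, heart by heart within a day, to see which groups of genes went up and down together. TAC is an operation in which a band narrows the aorta, so that the left ventricle pumps against a raised pressure. The 12 are the TAC libraries of a mouse series of 24, with 3 libraries each at day 2, day 4, day 7 and day 21. The other 12 libraries come from hearts given a sham operation at the same days, again 3 per day, and serve as the background. The ventricles of both operations were frozen in liquid nitrogen, and RNA was sequenced from total RNA. The labels give no strain, age or sex, and nothing in them says that the 3 libraries of a day came from separate animals, so that the p-values below measure only the spread between these libraries, which may be technical. From every gene's log2 CPM (counts per M, that is per 1000000, assigned reads) the mean of the 3 TAC libraries of the day was subtracted, which leaves 12 deviations per gene with 8 degrees of freedom. These were set against the deviations of 4 reference genes, Nppa, Nppb, Col1a1 and Mki67.

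Each reference gene stands for a different side of the response of a heart to pressure. Nppa and Nppb encode the atrial and the B-type natriuretic peptide, hormones that heart muscle cells release when they are stretched and that are standard markers of hypertrophy. Col1a1 encodes a chain of type I collagen, the main fibre of scar tissue, which fibroblasts make. Mki67 encodes Ki-67, a protein present in dividing cells, and in an adult heart most dividing cells are not muscle cells.

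Depth ran from 11.1 to 17.6 M assigned reads per TAC library and from 10.7 to 17.1 M per sham library. Of 24015 genes, 13816 passed a filter on low counts. The left ventricle label was checked with marker genes: Myl2, the ventricular myosin light chain, was at 3093 to 7777 CPM in the TAC libraries. Myl7, the atrial myosin light chain, had a median of 1.34 CPM in them, with 60.6 CPM in replicate 1 of day 7 as the highest value and 95.1 CPM as the highest in a sham library. Sln, another atrial gene, had a median of 0.0402 CPM in the TAC libraries and was at 12.5 CPM in the same replicate 1 of day 7. One further library stood apart: replicate 1 of day 2 after TAC held Esr1, the oestrogen receptor, at 2106 CPM, against 0.960 to 3.39 CPM in the other 11 TAC libraries. Results that rest on these libraries are given without them below.

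Nppa and Nppb are neighbours in the genome, and Top2a, which untangles DNA in dividing cells, was among the genes that followed Mki67. The 250 bases before the start site of these genes are shown for 2 pairs. The first lie side by side, and their r did not pass its test. The second lie on different chromosomes, and Top2a rose with Mki67 (values below). The sequences are RefSeq's for GRCm38.p6, which had an entry for 5 of the 6 genes looked up. They run 5′ to 3′ on the strand of the gene, and capitals mark the words searched for. Nppb lies at chr4:147985650-147985899 (+), Nppa at chr4:148000472-148000721 (+), with 14822 bases between the start sites, Mki67 at chr7:135716380-135716629 (-) and Top2a at chr11:99024190-99024439 (-).
Nppb: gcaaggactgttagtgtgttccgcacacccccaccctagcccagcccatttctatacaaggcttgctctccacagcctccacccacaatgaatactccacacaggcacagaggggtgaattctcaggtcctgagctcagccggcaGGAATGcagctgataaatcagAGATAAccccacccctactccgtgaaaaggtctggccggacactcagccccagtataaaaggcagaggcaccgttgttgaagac
Nppa: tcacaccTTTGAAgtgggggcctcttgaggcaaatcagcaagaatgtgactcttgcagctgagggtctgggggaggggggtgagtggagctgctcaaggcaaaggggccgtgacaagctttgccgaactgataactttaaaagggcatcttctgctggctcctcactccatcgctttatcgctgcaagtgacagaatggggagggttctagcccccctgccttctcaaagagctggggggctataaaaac
Mki67: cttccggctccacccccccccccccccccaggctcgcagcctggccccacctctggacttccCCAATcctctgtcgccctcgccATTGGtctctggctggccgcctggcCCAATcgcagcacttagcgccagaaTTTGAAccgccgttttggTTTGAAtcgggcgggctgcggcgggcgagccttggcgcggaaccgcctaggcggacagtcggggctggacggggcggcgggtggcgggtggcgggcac
Top2a: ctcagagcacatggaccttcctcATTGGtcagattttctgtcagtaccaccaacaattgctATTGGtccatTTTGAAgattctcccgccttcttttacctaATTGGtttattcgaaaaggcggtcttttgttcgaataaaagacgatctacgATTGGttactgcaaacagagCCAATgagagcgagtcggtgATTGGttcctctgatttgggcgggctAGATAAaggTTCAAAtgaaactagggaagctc
The words searched, on both strands, were CATTCC, known as a binding word of TEAD factors, AGATAA, of GATA factors, CCAAT, of the factor NF-Y, TTTGAA, the cell cycle element CHR, TGAGTCA, of AP-1 factors, and the CArG box of SRF. Mki67 held CCAAT 3 times and TTTGAA 2 times, and Top2a CCAAT 6 times, TTTGAA 2 times and AGATAA once. Nppb held CATTCC and AGATAA once each, and Nppa TTTGAA once. None of the marked words overlaps another. Of 32851 promoters of this length, 33.9% hold CCAAT, 16.0% TTTGAA, 12.6% CATTCC, 9.99% AGATAA, 4.46% TGAGTCA and 1.47% the CArG box, so that a match is a description of these windows only.

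Hearts of the same day differed by large factors in all 4 reference genes. Nppa was at 754.5, 1069 and 1541 CPM in replicates 1, 2 and 3 of day 2, at 3256, 1812 and 2060 CPM at day 4, at 2760, 853.4 and 1263 CPM at day 7 and at 2111, 678.1 and 3409 CPM at day 21. The highest heart of a day was 1.80-fold (day 4) to 5.03-fold (day 21) above the lowest, yet every TAC heart stood above every sham heart, which held 113.2 to 307.4 CPM. Nppb was at 62.3, 108.6 and 193.1 CPM at day 2, at 105.1, 133.9 and 175 CPM at day 4, at 107.1, 121.8 and 144.8 CPM at day 7 and at 140.5, 89.2 and 214.2 CPM at day 21. Its spread within a day was largest at day 2, at 3.10-fold, and smallest at day 7, at 1.35-fold. Replicate 1 of day 2, with 62.3 CPM, fell inside the sham range of 15.9 to 65.5 CPM, and the other 11 TAC hearts lay above it.

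Col1a1 separated the hearts of a day most at day 7. It was at 179.9, 524.5 and 574.5 CPM at day 2, at 2066, 884.9 and 2341 CPM at day 4, at 2147, 319.5 and 825.9 CPM at day 7 and at 528.6, 194.3 and 831 CPM at day 21. The highest heart of day 7 was 6.72-fold above the lowest. Replicate 1 of day 2 and replicate 2 of day 21 lay within the sham range of 130.6 to 229.2 CPM, although their Nppa, at 754.5 and 678.1 CPM, was above every sham heart. Mki67 was at 36.2, 84.5 and 156.6 CPM at day 2, at 198.1, 152.5 and 419.5 CPM at day 4, at 221.7, 290.1 and 436.9 CPM at day 7 and at 74.4, 68.7 and 63.8 CPM at day 21. It differed most at day 2, by 4.33-fold, and least at day 21, by 1.17-fold, where Nppa differed most. Replicate 1 of day 2 was within the sham range of 15.3 to 60.2 CPM.

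**Figure D1:**
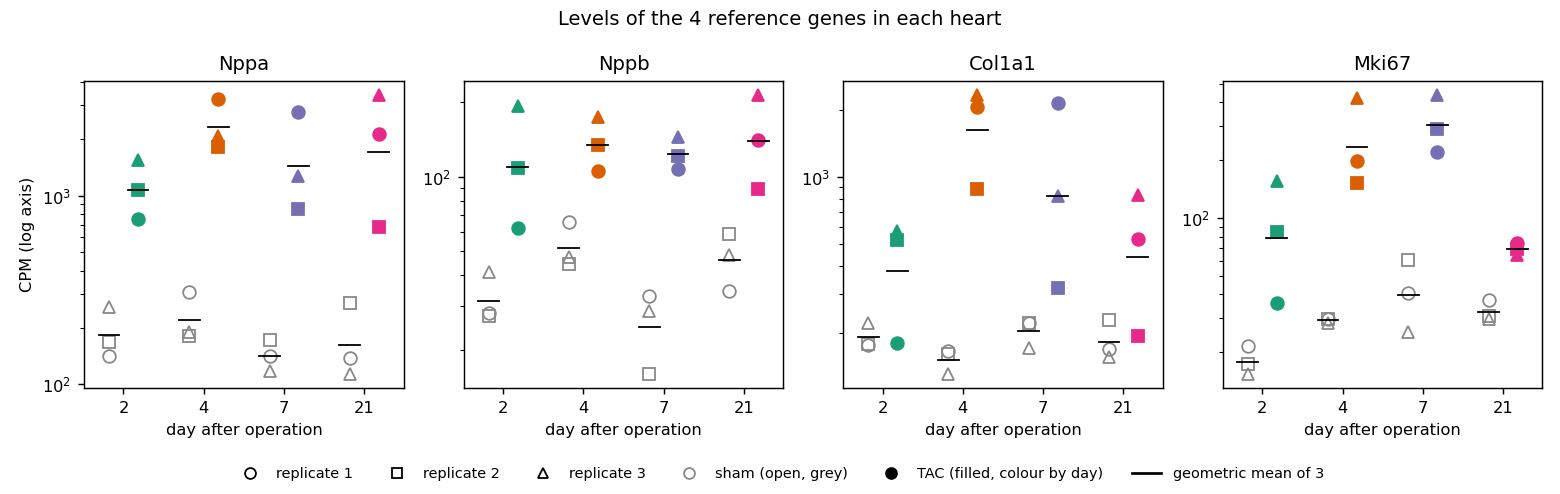
CPM (log axis) of Nppa, Nppb, Col1a1 and Mki67 in each heart, by day after the operation. Filled coloured symbols are TAC hearts, open grey symbols sham hearts, the shape gives the replicate and the bar is the geometric mean of 3. Replicate 1 of day 2 and replicate 2 of day 21 after TAC lie at the sham level for Col1a1 and above it for Nppa.

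How far each heart had gone along the response of the other days was measured as a slope: the log2 difference of a TAC heart from its day's sham mean, regressed over all genes on the mean TAC effect of the other 3 days, so that a heart equal to those has a slope of 1. It was 0.125, 0.735 and 1.03 at day 2, 1.34, 1.03 and 1.83 at day 4, 1.40, 0.720 and 1.22 at day 7, and 0.529, 0.117 and 0.782 at day 21. A sham heart was compared with the other sham hearts of its day, and these lay between -0.149 and 0.100. The hearts with the lowest slope of their day, replicate 1 of day 2 and replicate 2 of days 7 and 21, were also the lowest of their day in Nppa and Col1a1. At day 4 replicate 2 had the lowest slope and again the lowest Nppa and Col1a1.

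Nppa and Col1a1 varied together among the 12 hearts. Their deviations had a Pearson r of 0.892 (exact permutation of the libraries within each day, two-sided p = 0.00386, adjusted p = 0.0231 over the 6 pairs of reference genes) and a Spearman rho of 0.923 (exact permutation p = 0.00386, adjusted p = 0.0231). Of 1296 arrangements, the smallest p possible is 0.000772. Without the 2 hearts farthest from the median of Nppa, replicates 2 and 3 of day 21, r was 0.889, and without day 2 it was 0.902. Leaving out any one heart gave r of 0.856 to 0.937, but with fewer arrangements the adjusted p was over 0.05 for 9 of the 12 hearts left out. The 3 hearts stood in the same order for both genes at days 2, 7 and 21, while at day 4 Nppa was highest in replicate 1 and Col1a1 in replicate 3.

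The other 5 pairs did not pass after adjustment. Nppb and Mki67 had r of 0.730 (exact permutation p = 0.0378, adjusted p = 0.113) and rho of 0.706 (exact permutation p = 0.0363, adjusted p = 0.109), and r fell to 0.401 without replicates 1 and 3 of day 2, so that the relation rests on those hearts. Nppa and Nppb, the neighbouring genes, had r of 0.514 (exact permutation p = 0.157, adjusted p = 0.236) and rho of 0.510 (p = 0.163, adjusted p = 0.244), with r of 0.188 without replicates 2 and 3 of day 21. Leaving out any one heart gave r of 0.266 to 0.699, so that these 12 libraries do not show whether the neighbours vary together. Nppb and Col1a1 had r of 0.532 (exact permutation p = 0.108, adjusted p = 0.216) and rho of 0.545 (p = 0.106, adjusted p = 0.213), and r of 0.392 without the 2 farthest hearts. Without replicate 1 of day 7 their r was 0.766, and without replicate 1 of day 2 it was 0.373. For Col1a1 and Mki67 r was 0.362 (exact permutation p = 0.264, adjusted p = 0.317) and rho 0.210 (p = 0.532, adjusted p = 0.639), with 0.458 without the 2 farthest. This r hung on single hearts: it was 0.662 without replicate 1 of day 7, the library high in Myl7, and 0.0988 without replicate 1 of day 2. Nppa and Mki67 had the lowest r, 0.110 (exact permutation p = 0.677) and rho 0.112 (p = 0.730), with adjusted p-values equal to these and r of 0.192 without the 2 farthest: at day 21 Nppa differed by 5.03-fold between hearts whose Mki67 differed by 1.17-fold, and at day 7 the heart highest in Nppa was the lowest in Mki67.

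The same was computed in the 12 sham hearts, whose levels and spread were lower. Nppa and Col1a1 again had a high r, 0.863 (exact permutation p = 0.00386, adjusted p = 0.0231, rho 0.853, exact permutation p = 0.00694, adjusted p = 0.0417), and 0.735 without the 2 farthest hearts. Those 2, replicate 3 of day 2 and replicate 2 of day 21, held the highest Myl7 of the sham hearts, 95.1 and 70.2 CPM. The part of atrial tissue in this r was not tested. Nppb and Mki67 had r of -0.657 in sham hearts (exact permutation p = 0.136, adjusted p = 0.407, rho -0.545, p = 0.169, adjusted p = 0.437), opposite in sign to the TAC hearts. The other sham pairs had r between 0.0876 and 0.410, with adjusted exact permutation p-values of 0.449 to 0.742.

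**Figure D2:**
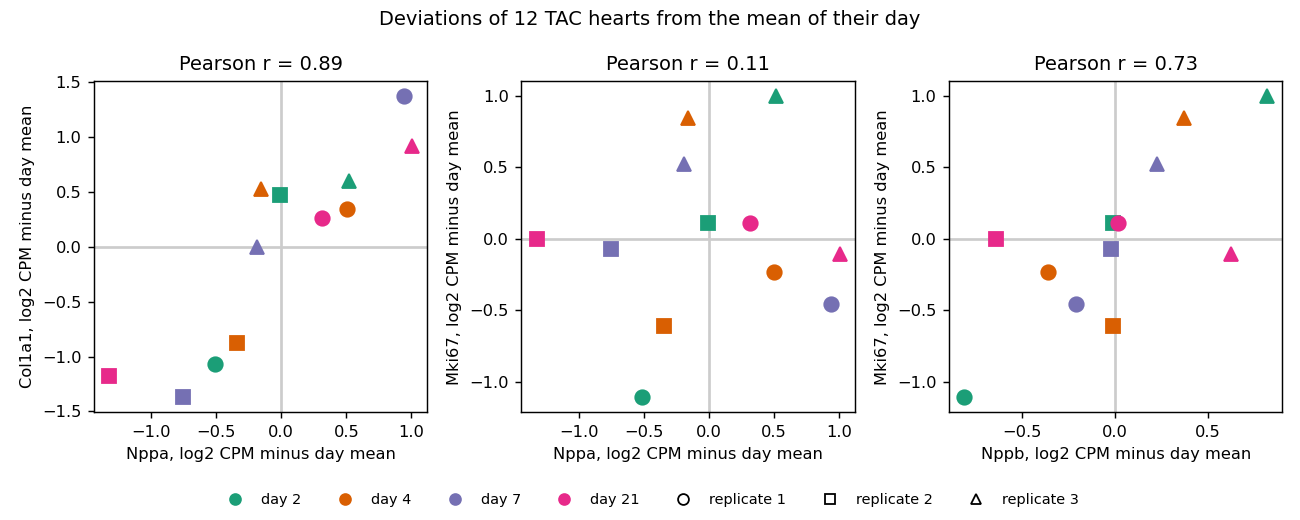
Deviation (log2 CPM minus the mean of the day) of each of the 12 TAC hearts for 3 pairs of reference genes, colour by day and shape by replicate. Nppa and Col1a1 lie along a line (r = 0.892), Nppa and Mki67 do not (r = 0.110), and Nppb and Mki67 (r = 0.730) are drawn out by replicates 1 and 3 of day 2.

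Over all genes, the TAC hearts of a day differed more than the sham hearts of a day. The SD of the deviations was above that of the sham hearts in 10303 of 13816 genes (74.6%), and the median SD was 0.218 against 0.149 (log2), or 0.210 without replicate 1 of day 2. One axis held 48.1% of the squared deviations of the TAC hearts and the next 15.1%, where the first 2 axes of the sham hearts held 19.7% and 16.6%. The first TAC axis had r of 0.970 with Col1a1, 0.832 with Nppa, 0.690 with Nppb and 0.507 with Mki67, and the second had r of 0.796 with Mki67, 0.494 with Nppb, -0.146 with Col1a1 and -0.290 with Nppa. As the axes were made from all genes, these values describe them and test nothing.

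Among genes whose mean log2 CPM reached 3, the 5 with the largest SD between hearts of a day were Fmod, Sprr1a, Comp, Spp1 and Col12a1. Fmod, which encodes the collagen-binding fibromodulin, had an SD of 3.14 (sham 1.86), and was at 187.4, 1.68 and 32.8 CPM in the hearts of day 7 and at 34.3, 0.436 and 147.5 CPM in those of day 21. Spp1, the gene of osteopontin, was at 4.26, 68.8 and 225.7 CPM at day 2. Sprr1a, a small stress-induced protein of heart muscle, was at 373.7, 42.2 and 253.9 CPM at day 4 and at 28.9, 0.321 and 22.0 CPM at day 7. Lox, the enzyme that cross-links collagen, had an SD of 1.70, against 0.282 in sham hearts, and was at 282.5, 17.96 and 106.9 CPM at day 7. The cartilage matrix gene Comp, the collagen gene Col12a1 and the protease inhibitor gene Timp1 had SDs of 2.45, 1.97 and 1.75. These genes were chosen by their spread, and their SDs are a description.

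To find the genes that followed each reference gene, a model was fitted to the counts of the 12 TAC hearts with the day and the log2 CPM of the reference gene (edgeR's quasi-likelihood test, adjusted by Benjamini-Hochberg over all genes, threshold 0.05). The slope is the log2 change of a gene for each doubling of the reference gene. A gene is said to rise or fall with a reference gene where its slope passed this test. With Nppa, 962 genes rose (6.96% of those tested) and 746 fell (5.40%). With Col1a1, 1735 rose (12.6%) and 1776 fell (12.9%). With Mki67, 275 rose (1.99%) and 29 fell (0.210%), and with Nppb 116 rose (0.840%) and 57 fell (0.413%). Of the genes that rose with Nppa, 910 also rose with Col1a1, 94.6% of the former and 52.4% of the latter, and of those that fell with Nppa, 719 also fell with Col1a1, 96.4% and 40.5%. No gene rose with both Nppa and Mki67 by this test. Of the Nppa genes 56.3% were called higher, and with no scaling beyond library size 77.6%. Genes that rose with both Nppb and Mki67 numbered 51, 44.0% of the Nppb genes and 18.55% of the Mki67 genes. All 4 fits use the same 12 libraries, so that these shares describe them and test nothing.

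The same fit in the 12 sham hearts called 28 genes higher (0.203%) and 13 lower (0.0941%) with Nppa, 35 higher (0.253%) and 7 lower (0.0507%) with Col1a1, and 0 with Nppb or Mki67 by edgeR, where 1104 and 561 genes had an unadjusted p under 0.05. Neither DESeq2 nor limma was run on the sham hearts alone.

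Matrix and fibroblast genes rose with Col1a1 nearly as a body. Of the 42 other genes of the extracellular matrix list, 41 rose and 0 fell, with a median slope of 0.61 and a median r of 0.934, where all genes had a median slope of 0.00 and a median r of 0.0218. The fibrillar collagen genes moved in step: Col1a2 had a slope of 0.98 ± 0.04 (SE, adjusted p = 5.71e-09), Col5a2 of 0.94 ± 0.03 (adjusted p = 4.22e-09) and Col3a1 of 0.87 ± 0.04 (adjusted p = 1.13e-07). Col5a2 was at 49.4, 143.6 and 167 CPM at day 2, at 451.1, 196.7 and 479 CPM at day 4, at 523.2, 94.3 and 222.6 CPM at day 7 and at 144.9, 57.6 and 232.9 CPM at day 21, and its 12 deviations stood in the same order as those of Col1a1. Of the activated fibroblast list 17 of 18 rose with Col1a1. Among them were Ltbp2, a matrix gene of the family named for latent TGF-beta binding, with the steep slope of 1.66 ± 0.10, and Postn. The latter, the gene of the matricellular protein periostin, had a slope of 1.11 ± 0.10 (adjusted p = 1.17e-05). Postn was at 95.5, 252.9 and 300.6 CPM at day 2, at 1951, 794.3 and 1609 CPM at day 4, at 1436, 181.2 and 808.3 CPM at day 7 and at 338.9, 67.2 and 523.2 CPM at day 21, which is a 7.92-fold range at day 7 and a 7.79-fold range at day 21. Markers of resident fibroblasts followed less uniformly: 9 of 16 rose and 1 fell, with a median slope of 0.19. In bulk tissue, a change in the number of cells of a type and a change of RNA per cell cannot be told apart.

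The same groups rose with Nppa, a gene of muscle cells. Of the 43 matrix genes 38 rose and 0 fell (median slope 0.79, median r 0.845), and of the activated fibroblast genes 17 of 18 rose. Col1a1 itself had a slope of 1.13 ± 0.18 on Nppa (adjusted p = 0.00736) and Postn one of 1.38 ± 0.18 (adjusted p = 0.00516). Among the genes with the highest r with Nppa were Nav1, of a microtubule-binding protein (r = 0.970, slope 0.19 ± 0.04), the matrix protease gene Adamts12 (r = 0.969, slope 0.54 ± 0.06) and Pdgfra, a receptor of fibroblasts (r = 0.960, slope 0.32 ± 0.04). Pdrg1 and Romo1, a small gene of the mitochondrial membrane, had the opposite sign, with slopes of -0.26 ± 0.04 and -0.37 ± 0.06. When both reference genes entered one model, 0 genes had a slope on Nppa that differed from that on Col1a1 (0% of genes in either direction), and 1424 had an unadjusted p under 0.05, so that no gene could be assigned to Nppa rather than to Col1a1. Other tools were not run for that contrast. In that model, with each reference gene in units of its SD, the matrix list had median slopes of 0.03 on Nppa and 0.56 on Col1a1. Activated fibroblast genes had 0.05 and 0.71, and oxidative phosphorylation genes 0.04 and -0.28. Macrophage genes had 0.12 and 0.16, and resident fibroblast genes 0.10 and 0.04. The difference of these medians was not tested. The Nppa calls rest on few hearts: the 1708 genes fell to 78 without replicate 1 of day 7, to 206 without replicate 2 of day 7, to 139 without replicate 3 and to 580 without replicate 2 of day 21, to 1023 without replicate 2 of day 4, and rose to 2726 without replicate 3 of day 4. Without the libraries high in Esr1 and Myl7 0 genes passed for Nppa, though the median slope of the matrix list was then 0.65.

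Part of the hypertrophic marker list rose with Col1a1 and Nppa, and part did not. With Col1a1 11 of 18 rose and 0 fell, and with Nppa 6 of 17 rose and 0 fell. Myh7, the slow myosin heavy chain that returns in the stressed ventricle, had a slope of 0.82 ± 0.15 on Col1a1 (adjusted p = 0.00137) and of 1.11 ± 0.19 on Nppa (adjusted p = 0.00901). It was at 1626, 4088 and 2820 CPM at day 2, at 1382, 1487 and 1890 CPM at day 4, at 4275, 951.9 and 1392 CPM at day 7 and at 1610, 719.7 and 5786 CPM at day 21, so that the highest heart of day 7 and that of day 21 were the same as for Nppa. Gdf15, a stress hormone gene, had a slope of 1.07 ± 0.17 on Col1a1. Acta1, the skeletal actin gene that is another classic marker, did not pass for any reference gene: at day 4 it was lowest, at 727.2 CPM, in replicate 1, the heart with the highest Nppa, and at 2895 and 1938 CPM in the other two, and at day 7 it was at 1630, 3361 and 2234 CPM, again lowest where Nppa was highest. At day 2 it was at 639.5, 1035 and 1114 CPM, in the order of Nppa, and at day 21 at 3138, 1004 and 2289 CPM, lowest where Nppa was lowest.

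Macrophage markers followed the matrix. With Col1a1 20 of 27 rose and 1 fell (median slope 0.36, median r 0.823), and with Nppa 15 rose and 1 fell. The fractalkine receptor gene Cx3cr1 had a slope of 0.67 ± 0.06 (adjusted p = 1.58e-05), the membrane gene Ms4a7 of 0.88 ± 0.10, and the complement gene C1qa of 0.29 ± 0.04. Cx3cr1 was at 5.47, 11.2 and 14.6 CPM at day 2, at 26.2, 16.3 and 34.9 CPM at day 4, at 19.9, 6.57 and 12.7 CPM at day 7 and at 10.2, 5.84 and 17.6 CPM at day 21. The member that fell was Timd4, a marker of resident macrophages, with a slope of -0.64 ± 0.12 (adjusted p = 0.00176). Of 24 genes of cytokines and chemokines 6 rose and 1 fell with Col1a1, and Il33, an alarm cytokine, had a slope of 0.90 ± 0.09. The zinc finger gene Egr2, of the immediate early list, had a slope of 1.44 ± 0.18 on Nppa (adjusted p = 0.00516), and in that list 8 of 25 rose and 1 fell with Col1a1. Over all genes 12.6% rose and 12.9% fell with Col1a1.

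Genes of the muscle cell's energy supply fell with Col1a1. All 45 measured genes of oxidative phosphorylation did so (median slope -0.27, median r -0.944), as did all 18 of the TCA cycle (median slope -0.24) and 25 of 29 of fatty acid oxidation, with 0 rising in any of the 3 lists. Ndufa8, of respiratory complex I, had a slope of -0.36 ± 0.03 (adjusted p = 1.70e-05), Cox7a1, of complex IV, of -0.56 ± 0.05, and Slc25a4, the carrier of ADP and ATP, of -0.35 ± 0.03. Ndufa8 was at 372.2, 225.1 and 223.8 CPM at day 2, at 226.6, 293.4 and 200.6 CPM at day 4, at 155.7, 304.5 and 236.2 CPM at day 7 and at 293.2, 379.5 and 243.1 CPM at day 21, highest in each day in the heart that was lowest in Col1a1. The electron carrier gene Etfb of fatty acid oxidation had a slope of -0.39 ± 0.04, Fh1, of fumarate hydratase, of -0.25 ± 0.03, and Samm50, of the outer mitochondrial membrane, of -0.25 ± 0.03. Glycolysis was divided, with 10 of 20 genes falling, among them the muscle enolase Eno3 (slope -0.38 ± 0.04), and 3 rising. The 3511 calls for Col1a1 ranged from 2476 to 3549 when single hearts were left out. With Nppa 35 of the 45 oxidative phosphorylation genes and 13 of the 29 fatty acid genes fell.

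The contractile apparatus fell in the same hearts. Of the sarcomere list 14 of 18 fell with Col1a1 and 0 rose (median slope -0.19, median r -0.889), and 8 fell with Nppa. Tnni3, cardiac troponin I, had a slope of -0.39 ± 0.03 (adjusted p = 1.52e-05), and the ventricular light chain genes Myl2 and Myl3 had slopes of -0.36 ± 0.04 and -0.31 ± 0.03. The fast myosin heavy chain gene Myh6 fell by 0.30 ± 0.04 per doubling of Col1a1. Tnni3 was at 5502, 3693 and 3399 CPM at day 2, at 3339, 4144 and 2948 CPM at day 4, at 2098, 4276 and 3434 CPM at day 7 and at 3991, 6103 and 3269 CPM at day 21, in each day highest in the heart lowest in Col1a1 and lowest in the heart highest in it. Among calcium handling genes 7 of 15 fell and 1 rose. The calcium pump gene Atp2a2 had a slope of -0.27 ± 0.04 and Hrc, a calcium-binding gene of the sarcoplasmic reticulum, one of -0.44 ± 0.05. Of the potassium and sodium channel genes 10 of 22 fell and 1 rose, with Kcnip2, a subunit of the transient outward channel, at -0.52 ± 0.08.

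Measures of the libraries and of the tissue sampled moved with the same axis. Over the 12 TAC hearts the deviation of Col1a1 had r of 0.940 with that of the log2 TMM factor, which scales a library for its composition (exact permutation p = 0.000772, the smallest possible, adjusted p = 0.00617 over 16 such relations, rho 0.944, and r of 0.897 without the 2 farthest hearts). Its r was 0.687 with the log2 library size (exact permutation p = 0.0455, adjusted p = 0.102, rho 0.720) and 0.831 with the atrial gene Myl7 (exact permutation p = 0.00772, adjusted p = 0.0412, rho 0.846). The Myl7 relation was 0.696 without the 2 farthest hearts. Nppa had r of 0.737 with the log2 TMM factor (exact permutation p = 0.0131, adjusted p = 0.0420, rho 0.790, and 0.611 without the 2 farthest). With Myl7 its r was 0.572 (exact permutation p = 0.106, adjusted p = 0.154, rho 0.650, and 0.347 without the 2 farthest). Of the atrial list 6 of the 9 members tested rose with Col1a1 and 1 fell. Its summed level was 536 to 2791 CPM in the TAC hearts against 425 to 764 CPM in the sham hearts, and Myl7, Sln and Mybphl were each at 0 in at least 1 TAC library. The members Dkk3 and Clu are also expressed by other cells of the heart. Clu alone was at 486.5 to 2546 CPM in the TAC hearts and at 381.1 to 595.1 CPM in the sham hearts, so that the sum mostly follows it. The highest Myl7, Sln and Myl4 were 60.6, 12.5 and 37.5 CPM in TAC hearts and 95.1, 19.5 and 44.8 CPM in sham hearts. The highest Dkk3 was 78.4 CPM in TAC hearts and 37.1 CPM in sham hearts. The part of atrial tissue, depth or composition in these slopes was not tested beyond the following refits.

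With the Myl7 level as a further term, 305 genes in place of 3511 passed for Col1a1. The matrix list then had 26 rising members and the macrophage list 14, while the oxidative phosphorylation list had 10 falling members, the sarcomere list 3 and fatty acid oxidation 1. The median slopes were then 0.66 for the matrix list, -0.22 for oxidative phosphorylation and -0.15 for the sarcomere list, against 0.61, -0.27 and -0.19. With the library size as a further term 1318 genes passed, with 37 matrix genes rising and 39 oxidative phosphorylation genes falling. Without replicate 1 of day 2 (high Esr1) and replicate 1 of day 7 (high Myl7) 1962 passed, with 38 matrix genes rising and 37 oxidative phosphorylation genes falling. The balance of the calls moved with the scaling: of the Col1a1 genes 49.4% were called higher, and with no scaling beyond library size 75.8%, while the median slope of all genes moved by less than 0.1. With no scaling 44 of the 45 oxidative phosphorylation genes and 10 of the 18 sarcomere genes fell with Col1a1, and 42 of the 42 matrix genes rose.

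**Figure D3:**
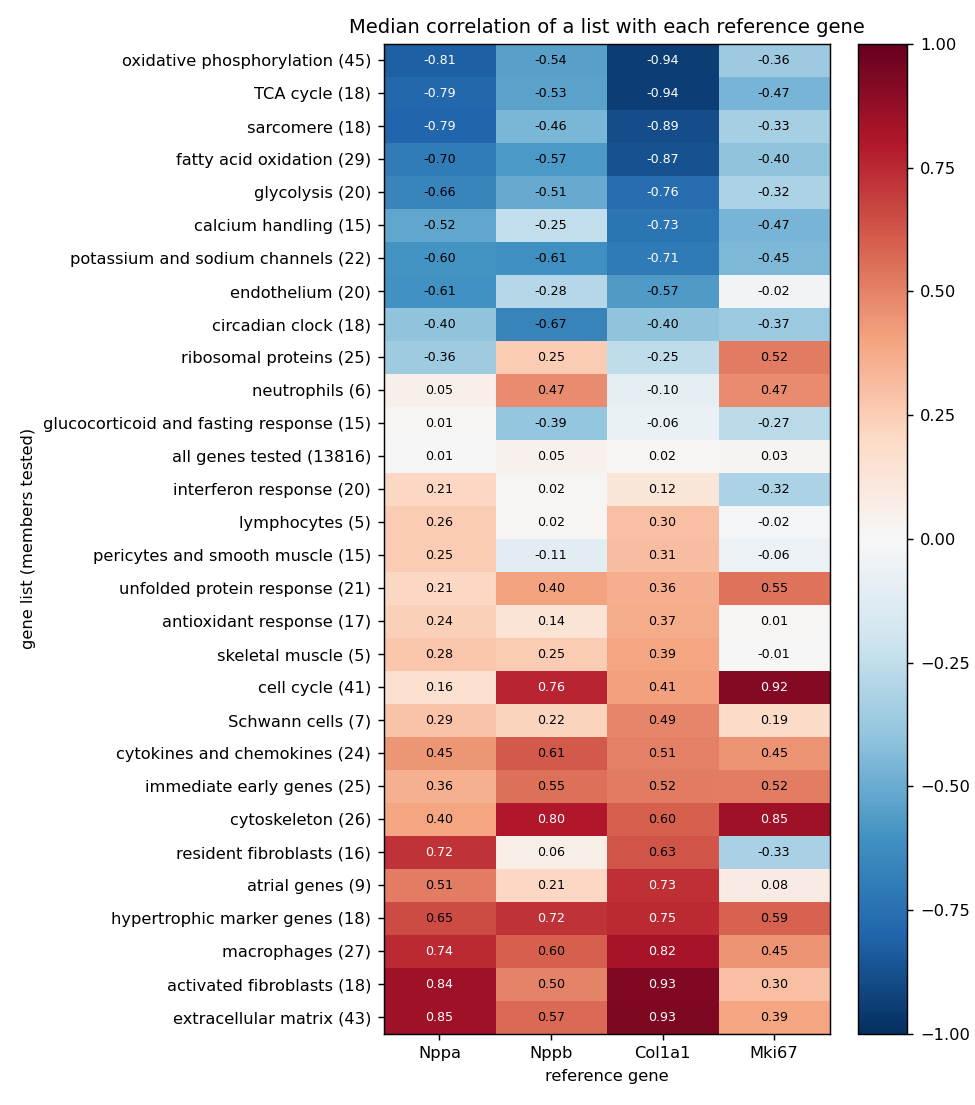
Median Pearson r of the members of each gene list with the deviations of the 4 reference genes over the 12 TAC hearts, for lists with at least 5 members tested and for all genes. Red is positive and blue negative. Matrix, fibroblast and macrophage lists are red and energy and sarcomere lists blue under Nppa and Col1a1, while the cell cycle list is at 0.921 with Mki67 and 0.156 with Nppa.

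The genes that followed Mki67 were a different group. Of the 40 other cell cycle genes 30 rose with Mki67 and 0 fell (median slope 0.89, median r 0.921, all genes 0.0280). Tpx2, of the mitotic spindle, had a slope of 1.01 ± 0.08 (adjusted p = 0.000275), Top2a of 1.07 ± 0.11 (adjusted p = 0.00123), the spindle motor gene Kif11 of 0.87 ± 0.09 and the mitotic kinase gene Plk1 of 1.27 ± 0.13. Tpx2 was at 2.90, 6.71 and 13.1 CPM at day 2, at 13.5, 10.8 and 31.5 CPM at day 4, at 17.8, 20.04 and 29.8 CPM at day 7 and at 5.17, 3.75 and 4.27 CPM at day 21. Replicate 3 was the highest heart in Tpx2 at days 2, 4 and 7, where it was also the highest in Mki67. Whether replicate numbers pair the hearts was not settled (values below). Rrm1, a subunit of the enzyme that makes DNA building blocks, had a slope of 0.41 ± 0.05, the spindle gene Aspm of 0.96 ± 0.09 and the histone gene Hist1h2ak of 0.88 ± 0.07 (adjusted p = 0.000275). Histone genes are near-identical copies, so that reads may be shared between them. With Nppa 0 of 41 cell cycle genes rose and 1 fell, and with Col1a1 1 rose and 1 fell. The 1 that fell with both was Cenpf, of the kinetochore, with slopes of -0.71 on Nppa and -0.53 on Col1a1.

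The cytoskeleton moved with Mki67 as well. Of 26 genes 15 rose and 0 fell (median slope 0.48, median r 0.850), among them the tubulin genes Tubb5 (0.62 ± 0.07, adjusted p = 0.00144) and Tubb6 (0.75 ± 0.09). This list was not particular to Mki67: with Col1a1 10 of the 26 rose and 0 fell (median r 0.596), where 12.6% of all genes rose. With Col1a1 and Mki67 in one model, 6 had the larger slope on Mki67 and 1 on Col1a1, and the rest could not be assigned. Tubb5 was at 125.1, 221.7 and 358.2 CPM at day 2, at 218.9, 211.1 and 362.1 CPM at day 4, at 207.5, 247.7 and 264.6 CPM at day 7 and at 157, 139.3 and 149.7 CPM at day 21. The growth regulator Myc had a slope of 0.73 ± 0.14 (adjusted p = 0.0255), Aldh1a2, an enzyme of retinoic acid synthesis that marks the activated epicardium, of 1.32 ± 0.20 (adjusted p = 0.00644) and Mcam, a marker of pericytes, of 0.37 ± 0.06. Mcam was the only 1 of 15 pericyte and smooth muscle genes to pass with Mki67, and the median slope of that list was -0.03. Of the epicardium list 1 of the 3 genes tested rose. The number of genes that fell with Mki67 moved with the tool and the hearts used: it was 29 (90.5% of the calls higher), 147 with DESeq2 (75.5% higher) and 332 without replicate 1 of day 7 (67.4% higher). With library size as a further term 15 rose and 10 fell (60% higher). Enpp2, the enzyme that makes lysophosphatidic acid, fell by 0.67 ± 0.09 (adjusted p = 0.00348), and was at 16.01, 10.98 and 5.502 CPM at day 2 and at 9.15, 11.6 and 5.72 CPM at day 4. The muscle ubiquitin ligase gene Fbxo32 had a slope of -0.32 ± 0.06 (adjusted p = 0.0214), the neuregulin receptor gene Erbb4 of -0.34 ± 0.07, the phosphatase gene Dusp1 of -0.44 ± 0.10 and Dpep1, of the resident fibroblast list, of -0.56 ± 0.12. With Mki67 0 of the 43 matrix genes, 0 of the 45 oxidative phosphorylation genes and 0 of the 18 sarcomere genes passed the test. Over all genes only 1.99% rose and 0.210% fell with Mki67. The median slopes of the 3 lists on it were 0.37, -0.16 and -0.12, so that the counts of 0 do not show the lists to be unrelated to Mki67. The Mki67 calls rest on the early hearts: without day 2 the count was 2 in place of 304, and 0 of the cell cycle list were called, although its median slope was 0.86 against 0.89. Without replicate 1 of day 2 the count was 56, without replicate 3 of day 2 it was 49, and without replicates 1, 2 or 3 of day 4 it was 201, 156 or 55. Without replicate 1 of day 7 it was 1017. The r of Mki67 with the log2 library size was 0.748 (exact permutation p = 0.0610, adjusted p = 0.108, rho 0.629, and 0.518 without the 2 farthest hearts), and with library size as a further term 25 genes were called, 2 of them of the cell cycle list.

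The genes called for Nppb overlapped those of both Col1a1 and Mki67. Of its 116 rising genes 38 (32.8%) also rose with Col1a1 and 51 (44.0%) with Mki67, and of its 57 falling genes 33 (57.9%) also fell with Col1a1 and 8 (14.0%) with Mki67. Of the cytoskeleton list 9 of 26 rose with Nppb and 0 fell (median slope 0.56, median r 0.801), of the cell cycle list 5 of 41 rose, and of the hypertrophic list 4 of 17. Ankrd1, a stretch-responsive gene of the sarcomere and nucleus, had a slope of 1.02 ± 0.15 (adjusted p = 0.0318) and was at 2005, 4410 and 5567 CPM at day 2, at 3629, 3818 and 5481 CPM at day 4, at 4647, 3804 and 5032 CPM at day 7 and at 4117, 2429 and 7874 CPM at day 21. Tnfrsf12a, the receptor of the cytokine TWEAK, had the smallest adjusted p of the genes named for Nppb (slope 1.17 ± 0.12, adjusted p = 0.00894) and was at 17.1, 49.2 and 69.2 CPM at day 2 and at 48.6, 24.2 and 65.0 CPM at day 21. The tubulin gene Tubb2a had a slope of 0.93 ± 0.12, the ribosome recycling gene Abce1 of 0.39 ± 0.06 and the chemokine gene Ccl2, which draws monocytes, of 1.75 ± 0.27. Of the cytokine list 5 of 24 rose, Ccl2 and Csf1, the growth factor of macrophages (0.29 ± 0.06, adjusted p = 0.0497), among them, while 0 of 27 macrophage markers passed.

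Of the 57 genes that fell with Nppb, Foxo3, Abtb1, Herpud1 and Tef are named here. Foxo3, a transcription factor of muscle atrophy, had a slope of -0.55 ± 0.08 (adjusted p = 0.0323) and was at 85.7, 69.9 and 47.3 CPM at day 2, at 52.1, 50.8 and 37.1 CPM at day 4, at 63.4, 71.7 and 63.5 CPM at day 7 and at 61.9, 90.7 and 53.6 CPM at day 21. Abtb1 had a slope of -0.63 ± 0.09, Herpud1, of protein degradation at the endoplasmic reticulum, of -0.64 ± 0.11, and Tef, a clock-controlled transcription factor, of -0.45 ± 0.09. Of the matrix list 0 of 43 genes passed with Nppb, although the median slope was 0.68, and Nppa itself had a slope of 0.66 ± 0.39 on Nppb that did not pass (adjusted p = 0.348). The fit with Nppb had the least power in simulated data, whose genes were drawn independently of one another. Of genes simulated with a slope of 0.5 it found 27%, against 84% for Col1a1, 70% for Nppa and 59% for Mki67. Its 173 calls moved with single hearts: 0 passed without replicate 1 or 3 of day 2 or replicate 3 of day 4, 1 without replicate 1 of day 4 or replicate 3 of day 7, 2 without replicate 1 of day 21, 6 without replicate 2 of day 2 and 22 without replicate 2 of day 21, but 1799 without replicate 1 of day 7. The median slope of the cytoskeleton list was 0.41 without day 2, 0.47 without replicate 1 of day 2 and 0.58 without replicate 1 of day 7. Nppb had r of 0.734 with the log2 library size (exact permutation p = 0.0455, adjusted p = 0.102, rho 0.727, and 0.587 without the 2 farthest hearts), and with library size as a further term 0 genes passed.

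**Figure D4:**
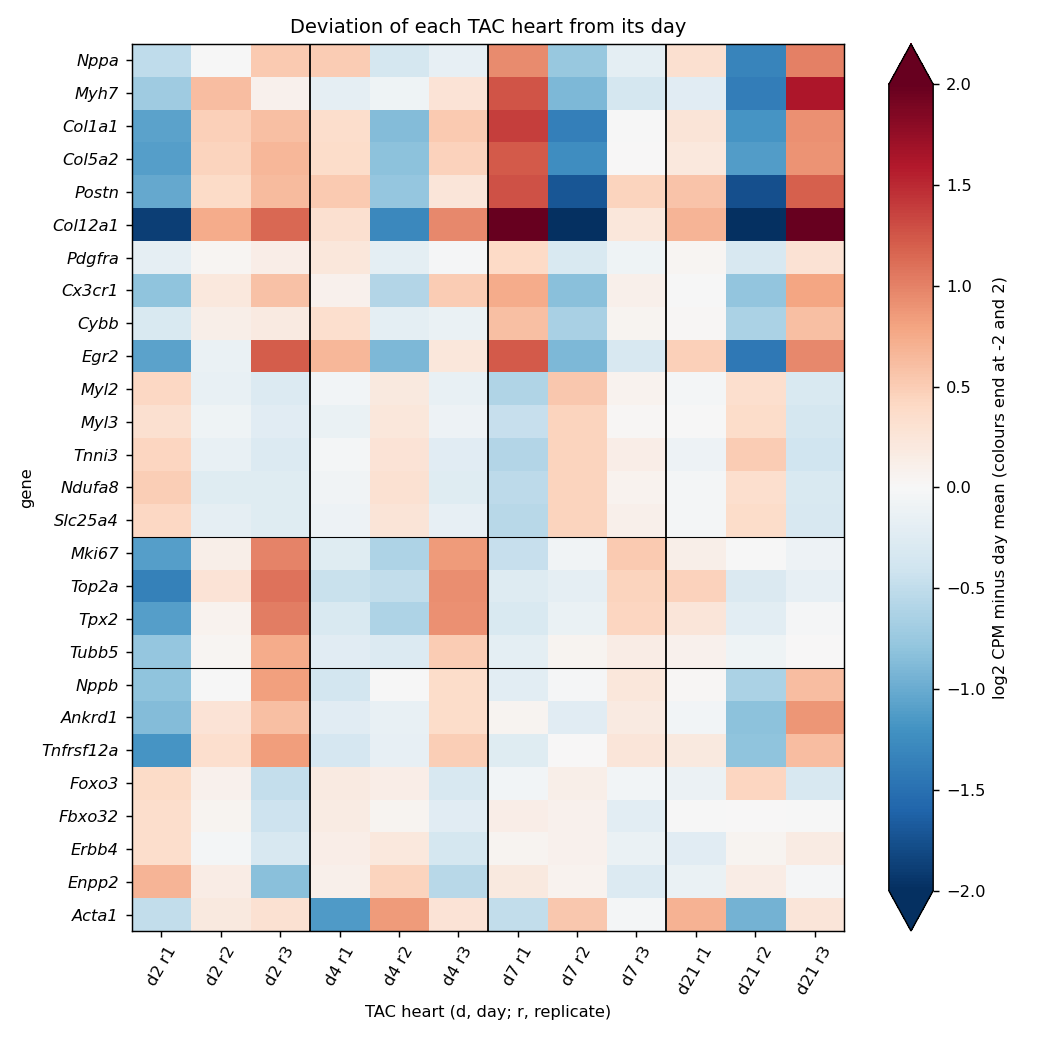
Deviation (log2 CPM minus the mean of the day, colours end at -2 and 2) of 27 genes in the 12 TAC hearts, with days set apart by vertical lines. From top to bottom stand genes named for Nppa and Col1a1, with the muscle genes of opposite sign below them, genes named for Mki67, and genes named for Nppb or falling with Mki67, with Acta1 last. Replicate 1 of day 7 is red for matrix genes and pale blue for cell cycle genes.

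Col1a1 and Mki67 were then put into one model, each in units of its SD over the 12 hearts, and the difference of the slopes was tested. A larger slope on Col1a1 was found for 664 genes (4.81%) and a larger slope on Mki67 for 710 (5.14%). Of the matrix list 32 of 42 had the larger slope on Col1a1 and 0 on Mki67, and of the activated fibroblast list 17 of 18 and 0. Of the cell cycle list 26 of 40 had the larger slope on Mki67 and 0 on Col1a1. Col1a2 had slopes of 0.90 on Col1a1 and -0.04 on Mki67 (difference 0.94 ± 0.05, adjusted p = 5.21e-07), and Mmp2, a gelatinase of fibroblasts, slopes of 0.65 and -0.37. Hist1h2ak had slopes of -0.05 and 0.54 (difference -0.58 ± 0.06, adjusted p = 0.000100), and Incenp, of the mitotic kinase complex, slopes of -0.13 and 0.44. Resident fibroblast genes were also apart, with 10 of 16 larger on Col1a1 and 0 on Mki67, although by single fits 9 rose and 1 fell with Col1a1 and 2 fell with Mki67 (median r of 0.628 and -0.327). Their summed level, 6073 to 9804 CPM, had r of -0.196 with Col1a1 and -0.898 with Mki67. Lpl alone was at 3085 to 7487 CPM in the TAC hearts, so that this sum follows 1 member closely and does not describe the list as a whole. Oxidative phosphorylation genes, 32 of 45, counted as larger on Mki67 because they fell with Col1a1 and had a median slope of 0.00 on Mki67. The joint count of 1374 genes fell to 236 without replicate 1 of day 7, to 542 without replicate 2 of day 7 and to 707 without replicate 3 of day 21.

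**Figure D5:**
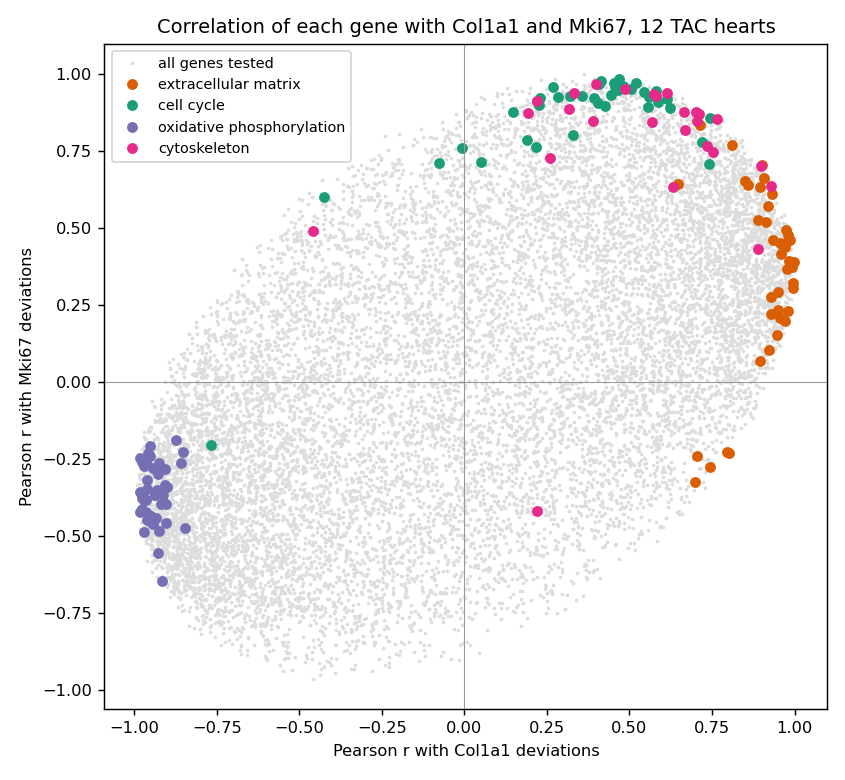
Pearson r of each gene with the deviations of Col1a1 (x axis) and Mki67 (y axis) over the 12 TAC hearts, all tested genes in grey and 4 lists in colour. Matrix genes lie at the right, oxidative phosphorylation genes at the left, most cell cycle genes at the top (median r with Mki67 0.921) and most cytoskeleton genes between the top and the right.

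Some lists had few or no calls. Of 20 interferon response genes 0 passed for any of the 4, with median r between -0.318 and 0.210. Blood genes, 4 tested of 10, also had 0 calls, with a summed level of 28.8 to 62.7 CPM in the TAC hearts. Of 25 ribosomal protein genes 0 passed with Nppa, 2 rose with Col1a1, 1 with Nppb and 1 with Mki67. Over all genes 6.96% rose and 5.40% fell with Nppa, and 12.6% and 12.9% with Col1a1. The shares were 0.840% and 0.413% with Nppb and 1.99% and 0.210% with Mki67, at which lists of this size would hold few or no calls. Endothelial and clock genes moved in part. Of the endothelium list 6 of 20 fell and 2 rose with Col1a1 (median slope -0.09), where 12.9% of all genes fell and 12.6% rose, 4 fell and 2 rose with Nppa, and 0 passed with Mki67. Their summed level had r of -0.833 with Nppa and -0.772 with Col1a1. The clock list had 6 of 18 falling and 1 rising with Col1a1, and its summed level had r of -0.871 with Nppb and -0.710 with Col1a1.

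Whether a slope differed between TAC and sham hearts was tested over all 24 libraries. The slope on Nppa differed for 1 gene (0.00724% above sham, 0% below) and that on Nppb for 5, of which 2 were above sham (0.0145%) and 3 below (0.0217%). For Col1a1 and for Mki67 the count was 0 by edgeR, with 1227 and 774 genes at an unadjusted p under 0.05. These genes stand in the closing section with their values. Tnni3 had r of -0.983 with Col1a1 in TAC hearts and 0.0988 in sham hearts, where Col1a1 spans a much smaller range, and this difference did not pass the test. The sham deviations of Col1a2 and Col5a2 had r of 0.953 and 0.917 with those of Col1a1.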

How the data were processed

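RNA of mouse left ventricles was sequenced with an Illumina NextSeq500 from NuGEN Ovation libraries, per the labels' protocols. The deposited values are unnormalised read counts for 24015 gene symbols and, in another table, the authors' RPKM (counts scaled by gene length and depth) for 23951. The submitters' processing notes name TopHat, DESeq and the human build hg19. That build cannot have given mouse symbols, and the sources used here do not give the mouse build, the annotation or the counter.

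Counts were analysed in R 4.3.3 with edgeR 4.0.16 (filterByExpr on 8 groups, TMM, log2 CPM with a prior count of 2, glmQLFit, glmQLFTest). The fit of a reference gene used the 12 TAC libraries with 7 residual degrees of freedom, the joint fit of 2 reference genes 6, and the comparison of TAC with sham slopes 24 libraries and 14. The SE is the slope divided by the square root of F. The RPKM table served as an alternative only. Tests were two-sided. Libraries held 10.7 to 17.6 M assigned reads, and replicates of a group differed by more than counting error (chi-square per degree of freedom 3.56 to 60.6).

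The reference genes, the 32 gene lists and the rule for naming genes were chosen with earlier results of these data known. The rule named, for each reference gene, the 8 highest and 8 lowest r among called genes whose mean log2 CPM reached 3, up to 4 members of each list with the smallest p, members against their list, and a fixed set of markers. The choice of which to print was made after seeing their values. Cenpf and the genes named for their spread were chosen after their values were seen. On simulated data with 200 changed genes among 13815, 91%, 72%, 96% and 85% of slopes of 1 were found for Nppa, Nppb, Col1a1 and Mki67, with 5.85%, 4.81%, 2.70% and 3.36% of calls false. Alternatives were RLE or no scaling, DESeq2 1.42.0, limma voom 3.58.1, other filters, a replicate block, Myl7 as a term, leaving out day 2 or single libraries and, for the correlations, Spearman's rho, a prior count of 0.5, deviations divided by the SD of the day, log2(RPKM + 1) and leaving out the 2 farthest libraries. The library size as a term and leaving out the libraries high in Esr1 and Myl7 were added after seeing the data. No label gives a batch, so no within-batch value was computed.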

Additional observations from a re-analysis of the deposited data

Results flagged for a closer look

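For 6 genes the slope on a reference gene differed between the TAC and the sham hearts (edgeR's quasi-likelihood test of the difference over 24 libraries, adjusted p under 0.05). Cybb, the catalytic subunit of the phagocyte oxidase, had a slope on Nppa of 0.58 in TAC hearts and of -0.29 in sham hearts, a difference of 0.87 ± 0.13 (adjusted p = 0.0253). It was at 41.1, 17.2 and 27.9 CPM in the TAC hearts of day 7, where Nppa was at 2760, 853.4 and 1263 CPM, and at 12.3 to 22.5 CPM in the sham hearts.

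On Nppb, Uck2, a kinase of pyrimidine salvage, had slopes of 1.23 in TAC and -0.15 in sham hearts, a difference of 1.38 ± 0.23 (adjusted p = 0.0477). Fhl1, a LIM protein of the sarcomere, had 1.18 and -0.08, a difference of 1.26 ± 0.22 (adjusted p = 0.0477). The TAC hearts of day 2 held Fhl1 at 232.4, 493.9 and 853.1 CPM, in the order of their Nppb. Foxo3 had -0.55 and 0.17, a difference of -0.71 ± 0.12 (adjusted p = 0.0477), Efemp1, of the matrix protein fibulin-3, had -1.47 and 0.16, a difference of -1.63 ± 0.28 (adjusted p = 0.0477), and the transporter gene Slc26a10 had -0.51 and 0.33, a difference of -0.84 ± 0.15 (adjusted p = 0.0487).

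The number of genes with such a difference was unstable. For Nppa it was 1 in the 24 libraries, 0 without TAC replicate 1 of day 7 and 548 without TAC replicate 3 of day 4. For Nppb it was 5, then 0 without TAC replicate 3 of day 2 and 469 without TAC replicate 1 of day 7. Without single sham libraries the counts were 0 to 3 and 0 to 2. Of 33 alternatives, 9 ended the call for Cybb, 19 that for Foxo3, 20 those for Uck2 and Slc26a10, 21 that for Fhl1 and 22 that for Efemp1, while no sign changed in them. The cause was not tested.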

How the results depend on the processing

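Directions held more often than calls. Of 66 printed slopes on a reference gene, 0 changed sign under the 23 alternatives run for each, 18 stayed on the same side of the threshold in all of them (1 of these, Nppa on Nppb, never passed), and 254 of 1518 refits lost a call. RLE scaling, no scaling, DESeq2, limma voom and the filter at a mean of 10 counts changed none of these 66. The largest losses were 37 of the 66 calls with the replicate block and 29 without the libraries high in Esr1 and Myl7. Leaving out day 2 ended 26 and library size as a term 23. The 4 printed differences between a slope on Col1a1 and on Mki67 passed in all 84 refits. These 4 had been chosen for a small p in this same contrast, and the 66 slopes were printed with their values known. The refits reuse the same libraries, so that a kept call or sign describes the printed genes and tests nothing. The 6 printed differences between TAC and sham slopes kept their sign, but 111 of 198 refits lost the call. The counts of genes for Nppa, Nppb, Col1a1 and Mki67, 1708, 173, 3511 and 304, became 156, 120, 305 and 350 with Myl7 as a term, 939, 0, 1318 and 25 with library size, 0, 10, 1962 and 54 without the libraries high in Esr1 and Myl7, and 1182, 0, 3089 and 2 without day 2. DESeq2 called 947 for Nppb and 601 for Mki67, and with no scaling Nppb had 767. Leaving out single TAC libraries gave 78 to 2726, 0 to 1799, 2476 to 3549 and 49 to 1017.

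Whether replicate numbers pair the hearts was not settled: 8 of 18 same-numbered pairs of TAC libraries had r over 0.1 (-0.401 to 0.590), and 7 of 12 libraries correlated best with their own number. Pairs of replicate 3 had r of 0.0333 to 0.434, and replicates 2 of days 4, 7 and 21 had 0.447 to 0.590 with one another. Replicate 2 of day 2 had -0.401 to -0.285 with these, and pairs of replicate 1 had -0.380 to 0.0967. With the replicate number as a block the counts were 2, 0, 2143 and 0, the joint count for Col1a1 against Mki67 was 661, that for Nppa against Col1a1 2 and the TAC against sham count for Nppb 10.

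The joint count for Col1a1 against Mki67, 1374, was 369 with Myl7 and 226 without the 2 libraries, and 236 to 1581 without single ones. For Nppa against Col1a1, 0, it was 2 with library size, 5 without the 2 libraries and 0 to 5 without single ones. The TAC against sham count for Nppa, 1, became 0 with library size, 726 with Myl7, 39 with no filter, 53 without the 2 libraries, 3 without day 2 and 0 to 548 without single ones. That for Nppb, 5, became 0 with library size, 78 with Myl7, 9 with no filter, 132 without the 2 libraries, 42 with no scaling, 0 without day 2 and 0 to 469 without single ones. That for Col1a1 was 0 to 2 and that for Mki67 0.

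The r of Nppa and Col1a1 kept its size but not its adjusted p at 0.922 with library size (0.190), 0.854 without the 2 libraries (0.167), 0.901 without day 2 (0.111) and 0.889 without the 2 farthest hearts (0.194), and single libraries left out gave 0.856 to 0.937. Leaving out libraries lowers the number of arrangements. The r of Nppa and Mki67 changed sign to -0.325 with library size, -0.0949 with Myl7, -0.209 without day 2 and to as low as -0.110 without single libraries (highest 0.312), and that of Col1a1 and Mki67 to -0.316 with library size. The cause of these shifts was not tested.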
